A study of Arabidopsis thaliana with 16 samples.

Results

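The 313 loci described here were transcripts held above a floor in every petal library of Arabidopsis thaliana and below a low limit in wild-type seedlings. They were chosen from measured values: a nuclear locus was taken when it stood at 5 FPKM (fragments scaled by transcript length and by the number of mapped fragments) or more in all 12 petal libraries and below 0.5 FPKM in both Col-0 seedling libraries. Of 32548 nuclear loci, 6841 met the petal limit, and 313 of those (4.58%) also met the seedling limit. The other 6528, which reached 0.5 FPKM in either or both Col-0 seedling libraries, served as the comparison set. The excess of petals over Col-0 seedlings is therefore a description of the choice, and no test of it is given. The study had 16 libraries in 8 groups of 2, with replicates labelled as biological. Petals came from 35S:CO plants, in which the constitutive 35S promoter drives the flowering regulator CONSTANS (CO), from co-10 plants, which lack CO function, and from wild-type Col-0 plants, each taken at ZT16 and at ZT4, hours after lights on in a long day of 16 h light and 8 h dark. Whole 10-day-old seedlings of 35S:CO and of Col-0 were taken at ZT16. The labels do not say how many transgenic lines or plants each library pooled, nor the stage of the flowers, so p-values measure the spread between these libraries.

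A petal is a sheet of epidermal and mesophyll cells around veins, and its identity is set by MADS-box factors, among them APETALA3 (AP3) and PISTILLATA (PI). When a flower opens its anthers shed pollen, each grain a vegetative cell that carries the sperm cells, and grains can come to rest on petals. Pollen stores transcripts for growing a tube through the pistil: pectin-remodelling enzymes, RALF signalling peptides with their receptor-like kinases, calcium-dependent kinases and an actin cytoskeleton of its own.

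The 6 stretches of 250 bases below, each upstream of the annotated gene start, set the promoters of pollen tube genes beside those of floral MYB genes whose FPKM values differed in opposite directions with the time of day. They were read from the TAIR10.1 genome (RefSeq), in the direction of transcription. Capitals mark matches to TATAAA on the forward strand and, on both strands, to the G-box CACGTG, to the CCAAT box, to the evening element AAAATATCT, to the CO-responsive letters TGTGNNATG and to the MEF2-type and SRF-type CArG boxes. AGAAA and GTGA were also counted on both strands and are not marked, and the motifs were chosen with the membership known. VGD1 lies at chr2:19330198-19330447, PGA4 at chr1:612325-612574, RALFL8 at chr1:22715449-22715698, RALFL9 at chr1:22717611-22717860, MYB57 at chr3:211805-212054 and MYB24 at chr5:16141135-16141384, all on the minus strand.
VGD1: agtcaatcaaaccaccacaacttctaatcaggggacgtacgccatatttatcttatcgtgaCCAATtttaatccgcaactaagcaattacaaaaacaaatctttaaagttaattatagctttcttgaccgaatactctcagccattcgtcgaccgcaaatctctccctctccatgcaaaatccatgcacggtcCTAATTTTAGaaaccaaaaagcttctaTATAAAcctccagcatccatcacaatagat
PGA4: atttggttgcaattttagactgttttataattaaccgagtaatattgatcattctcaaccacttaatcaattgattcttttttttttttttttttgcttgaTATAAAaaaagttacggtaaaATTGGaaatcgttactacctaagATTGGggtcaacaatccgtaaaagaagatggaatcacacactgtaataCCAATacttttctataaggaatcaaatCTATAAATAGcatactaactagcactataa
RALFL8: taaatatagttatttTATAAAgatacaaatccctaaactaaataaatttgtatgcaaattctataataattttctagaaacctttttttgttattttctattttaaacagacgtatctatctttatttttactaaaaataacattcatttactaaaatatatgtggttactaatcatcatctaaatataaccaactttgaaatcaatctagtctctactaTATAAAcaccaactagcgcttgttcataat
RALFL9: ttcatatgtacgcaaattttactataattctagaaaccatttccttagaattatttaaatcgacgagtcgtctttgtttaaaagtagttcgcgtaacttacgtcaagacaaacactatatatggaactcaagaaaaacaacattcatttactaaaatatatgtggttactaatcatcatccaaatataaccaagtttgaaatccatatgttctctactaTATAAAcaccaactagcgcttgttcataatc
MYB57: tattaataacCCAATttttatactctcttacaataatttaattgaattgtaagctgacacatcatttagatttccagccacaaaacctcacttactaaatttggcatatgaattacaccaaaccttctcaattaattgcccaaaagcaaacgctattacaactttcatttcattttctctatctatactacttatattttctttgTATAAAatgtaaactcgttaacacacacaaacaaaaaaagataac
MYB24: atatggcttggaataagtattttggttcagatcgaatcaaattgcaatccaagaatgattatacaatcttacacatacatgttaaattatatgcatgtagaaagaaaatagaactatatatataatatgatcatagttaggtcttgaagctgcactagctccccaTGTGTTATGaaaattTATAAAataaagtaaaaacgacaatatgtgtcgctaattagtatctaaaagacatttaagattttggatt

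VGD1, a pectin methylesterase of the pollen tube, carried a MEF2-type CArG box 57 to 48 bases upstream of its start and a TATAAA from base 30 to base 25. PGA4, a polygalacturonase, carried its CArG box at 30 to 21 bases upstream, and that match holds a TATAAA. RALFL8 and RALFL9, neighbouring genes for RALF-like peptides, had no CArG box, but their upstream stretches share a run of 42 identical bases. MYB24 held the TGTGNNATG letters at 85 to 77 bases upstream. Over the 304 protein-coding members, 42 (13.8%) had a MEF2-type CArG box, against 105 of 6485 in the comparison set (1.62%) and 591 of 27443 protein-coding nuclear genes (2.15%). MADS-box complexes of pollen are known to bind this kind of box. In 27 of the 42 the nearest match lay within 100 bases of the start, the median was 63.5 bases, and in 5 the match contained TATAAA. Some of the 42 are neighbouring genes of one family and so are not independent. In AT3G28780, AT3G28790 and AT3G28830, for example, the match began 186, 189 and 183 bases upstream. The box was in 5 of 33 pollen tube genes chosen by name (15.2%: VGD1, ADF7, ADF10, ACT12 and CHX23), in 1 of 8 petal identity and maturation regulators (12.5%: MYB108) and in 0 of 4 terpenoid genes, so the first 2 shares lay close to that of all members. The SRF-type box was in 4.61% of members and 2.70% of the comparison set, and the G-box in 11 members (3.62%) against 8.33% of the comparison set. As a ratio of shares, though not always in percentage points, the other letters differed less. TATAAA was in 37.8% of members and 31.5% of the comparison set, CCAAT in 45.4% and 48.7%, and TGTGNNATG in 4.93% and 3.30%. The evening element was in 1.64% and 2.51%, AGAAA in 85.2% and 81.7%, and GTGA in 79.6% and 76.4%. In all protein-coding nuclear genes the shares were 2.52% for the SRF-type box, 6.49% for the G-box, 32.9% for TATAAA, 46.0% for CCAAT, 3.34% for TGTGNNATG, 2.36% for the evening element, 82.5% for AGAAA and 77.5% for GTGA. These are shares of letters in a window and were not tested.

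The label "steady petal transcripts" went against the data because many of the leading members are known as pollen genes and the members varied more between petal libraries than other petal transcripts did. Of 12 pollen markers, 5 were members (VGD1, VGDH1, AGP11, PPME1 and BCP1), and 9 stood at 1 FPKM or more in every petal library. The other 3, the sperm cell genes HAP2 and DUO1 and the pollen coat gene GRP17, stayed below 1 FPKM in every petal library and were listed at 0 in most. The 12 summed to between 1815 and 8696 FPKM in petals (median 3980), against 15.5 to 36.9 FPKM in seedlings. The petal and floral identity list of 12, of which 7 were members (AP3, PI, SEP2, AP1, MYB21, MYB24 and MYB57), summed to 1276 to 3548 FPKM in petals and 9.55 to 23.0 FPKM in seedlings. Markers of other floral cells were low. The 9 tapetum and anther wall genes summed to 0 to 16.9 FPKM in petals with at most 1 of them at 1 FPKM, the 3 stamen identity genes to 0 to 6.54 FPKM, the 8 carpel, ovule and seed genes to 18.0 to 42.8 FPKM, and the 3 nectary genes to 0 to 33.6 FPKM. The 8 root genes summed to 5.86 to 12.4 FPKM in petals and 78.2 to 109.8 FPKM in seedlings, and the 7 leaf and green tissue genes to 575 to 6316 FPKM in petals and 17695 to 20847 FPKM in seedlings. Both lists overlap the members, which the choice held at 5 FPKM or more in every petal library, so their petal levels are partly fixed by it. How much of the members' level came from pollen was not tested, and in bulk tissue fewer cells and less RNA per cell cannot be told apart.

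The members' summed level was lowest in 35S:CO petals and highest in the library with the most pollen marker signal. They made up 7.19 to 8.19% of nuclear FPKM outside ribosomal RNA in the 4 libraries of 35S:CO petals, 10.2 to 15.9% in co-10 petals and 8.13 to 13.8% in Col-0 petals. In seedlings they made up 0.0145 and 0.0203% in 35S:CO and 0.00283 and 0.0029% in Col-0, where the choice held them low. The 35S:CO seedling values rested partly on a few loci. In replicate 1 the members summed to 118 FPKM, of which AT3G02910 gave 50.4 and CDA1 23.7 FPKM. In replicate 2 CDA1 gave 22.8 of 84.3 FPKM. Both loci overlap a gene on the other strand. The co-10 ZT16 replicate 2 library stood apart: it had the largest share of members (15.9%), the largest pollen sum (8696 FPKM), and the highest value of 181 members (57.8%), against 10.8% of the comparison set. Of the 12 pollen markers 5 are members, so the pollen sum and the members' share are not independent. For 145 members (46.3%) the lowest petal library was a 35S:CO one, against 24.2% of the comparison set. Ribosomal RNA took from 3.85 to 48.8% of the FPKM sum in petals, lowest in that same co-10 library. CO checked the 35S:CO label: it stood at 414 to 625 FPKM in 35S:CO petals, at 0.0256 to 0.260 FPKM in co-10 petals and at 0.0376 to 0.703 FPKM in Col-0 petals. The Col-0 petal level was too low for CO to serve as a check of the co-10 label.

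**Figure D1:**
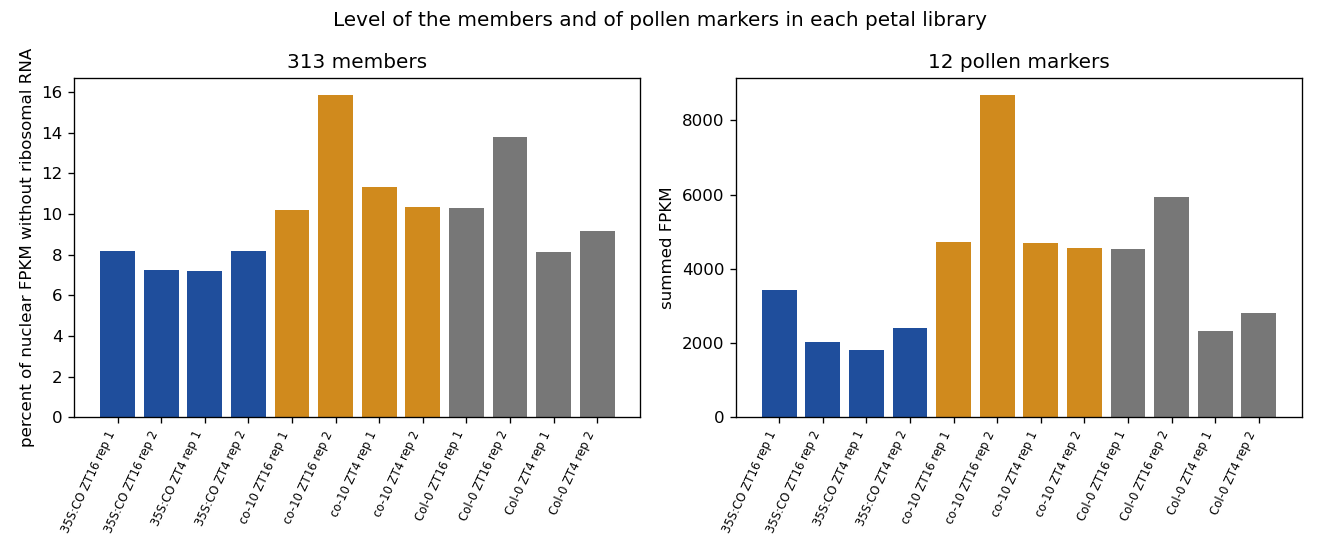
Left, the 313 members' share of nuclear FPKM outside ribosomal RNA (percent) in each of the 12 petal libraries; right, the summed FPKM of 12 pollen markers in the same libraries. Bars are single libraries coloured by genotype (blue 35S:CO, orange co-10, grey Col-0); co-10 ZT16 replicate 2 is the tallest in both panels, at 15.9% and 8696 FPKM. Of the 12 markers 5 are members, so the panels share genes.

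Grouped by annotated name alone, the members included enzymes of the cell wall and signalling genes, kinds of genes that pollen tubes are known to use. Of the wall genes, 21 were pectin methylesterases or their inhibitors, 11 pectin lyase-like proteins and polygalacturonases, 4 pectate lyases, 9 glycosyl hydrolases and 4 SKU5-similar proteins, which are copper-oxidase-like wall proteins. Signalling members comprised 12 protein kinase family proteins, only some of them annotated as receptor-like, and 8 RALF-like peptides. They also held 5 calcium-dependent protein kinases and 8 C2 or EF-hand calcium-binding proteins. Actin and actin-binding proteins counted 6 and cation/H+ exchangers 4. In all, 139 members fell into one of 23 families with 3 or more members each. The other side of the set was smaller: 4 MADS-box genes, 7 MYB genes, 5 cytochromes P450 and 2 terpene synthases. Chosen by name after the membership was known, 33 pollen tube genes, 8 regulators of petal identity and maturation and 4 genes of terpenoid metabolism are followed below.

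Among the 20 members with the highest petal medians, genes of the pollen tube wall and RALF peptides came first. PGA4 led with a median of 1358 FPKM, then RALFL9 (1247), RALFL8 (1169), the spliceosomal RNA genes U1.6 (1148) and U1.7 (1143), sks13 (1128), the P450 gene CYP71B31 (1103), VGD1 (1042) and the pectin lyase-like gene AT3G07820 (1031). U1.6 and U1.7 share 95.5% of their 75-base words, so reads could be split between them in either way, and their medians count as uncertain. Next came AT3G01270 (972), the linalool synthase gene TPS14 (964), the arabinogalactan peptide gene AGP23 (945), AT3G49540 (897), the acyl-activating enzyme gene AAE11 (859), PI (766), the senescence protease gene SAG12 (729.9), BCP1 (716), the light-harvesting gene LHB1B2 (699.7), the Ole e 1 family gene AT5G45880 (676) and AT5G07430 (619). Over all members the petal median ran from 6.71 to 1358 FPKM with a midpoint of 57.7 FPKM, against 26.7 FPKM in the comparison set.

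VGD1 stood at 778 and 566 FPKM in 35S:CO petals at ZT16, 517 and 690.0 in 35S:CO at ZT4, 1549 and 2833 in co-10 at ZT16, 1462 and 1282 in co-10 at ZT4, 1139 and 1838 in Col-0 at ZT16, and 429 and 945 in Col-0 at ZT4. It was listed at 0 in all 4 seedling libraries. Its co-10 values were all above its 35S:CO values, while Col-0 overlapped both. PGA4 stood at 950.0 and 618 FPKM in 35S:CO at ZT16, 565 and 767 in 35S:CO at ZT4, 1525 and 3666 in co-10 at ZT16, 1889.8 and 1587 in co-10 at ZT4, 1621 and 1795 in Col-0 at ZT16 and 1038 and 1190.5 in Col-0 at ZT4, and it too was listed at 0 in seedlings. RALFL8 stood at 841 and 551 FPKM in 35S:CO at ZT16, 658 and 748 in 35S:CO at ZT4, 1192 and 3181 in co-10 at ZT16, 2467 and 773 in co-10 at ZT4, 2394 and 1492 in Col-0 at ZT16 and 1475 and 1145 in Col-0 at ZT4. For PGA4 every 35S:CO library was below every library of the other genotypes, and for RALFL8 1 library of co-10 at ZT4 (773 FPKM) lay within the 35S:CO range. AGP11, an arabinogalactan protein of pollen, stood at 521 and 296 FPKM in 35S:CO at ZT16, 229 and 362 in 35S:CO at ZT4, 705 and 1409.6 in co-10 at ZT16, 596 and 1139 in co-10 at ZT4, 644 and 1042 in Col-0 at ZT16, and 258 and 359 in Col-0 at ZT4. At ZT4 its 35S:CO and Col-0 values overlapped.

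The petal identity genes had another order. AP3 stood at 577 and 545 FPKM in 35S:CO at ZT16, 549 and 427 in 35S:CO at ZT4, 406 and 279 in co-10 at ZT16, 524 and 513 in co-10 at ZT4, 382 and 275 in Col-0 at ZT16 and 543 and 696 in Col-0 at ZT4. PI, its partner in the dimer, stood at 852 and 528 FPKM in 35S:CO at ZT16, 1069 and 881 in 35S:CO at ZT4, 542 and 474 in co-10 at ZT16, 1064 and 790.0 in co-10 at ZT4, 578 and 456 in Col-0 at ZT16 and 741 and 1148 in Col-0 at ZT4. The co-10 ZT16 replicate 2 library, highest for VGD1 and PGA4, was the second lowest for both. SEP2, a MADS-box cofactor, stood at 143 and 205 FPKM in 35S:CO at ZT16, 154 and 91.0 in 35S:CO at ZT4, 60.02 and 76.2 in co-10 at ZT16, 56.1 and 62.1 in co-10 at ZT4, 136 and 129.5 in Col-0 at ZT16 and 146 and 131 in Col-0 at ZT4. Its 4 co-10 values lay below all 8 others. AP1, the fourth MADS-box member, ranged from 30.1 to 53.1 FPKM.

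**Figure D2:**
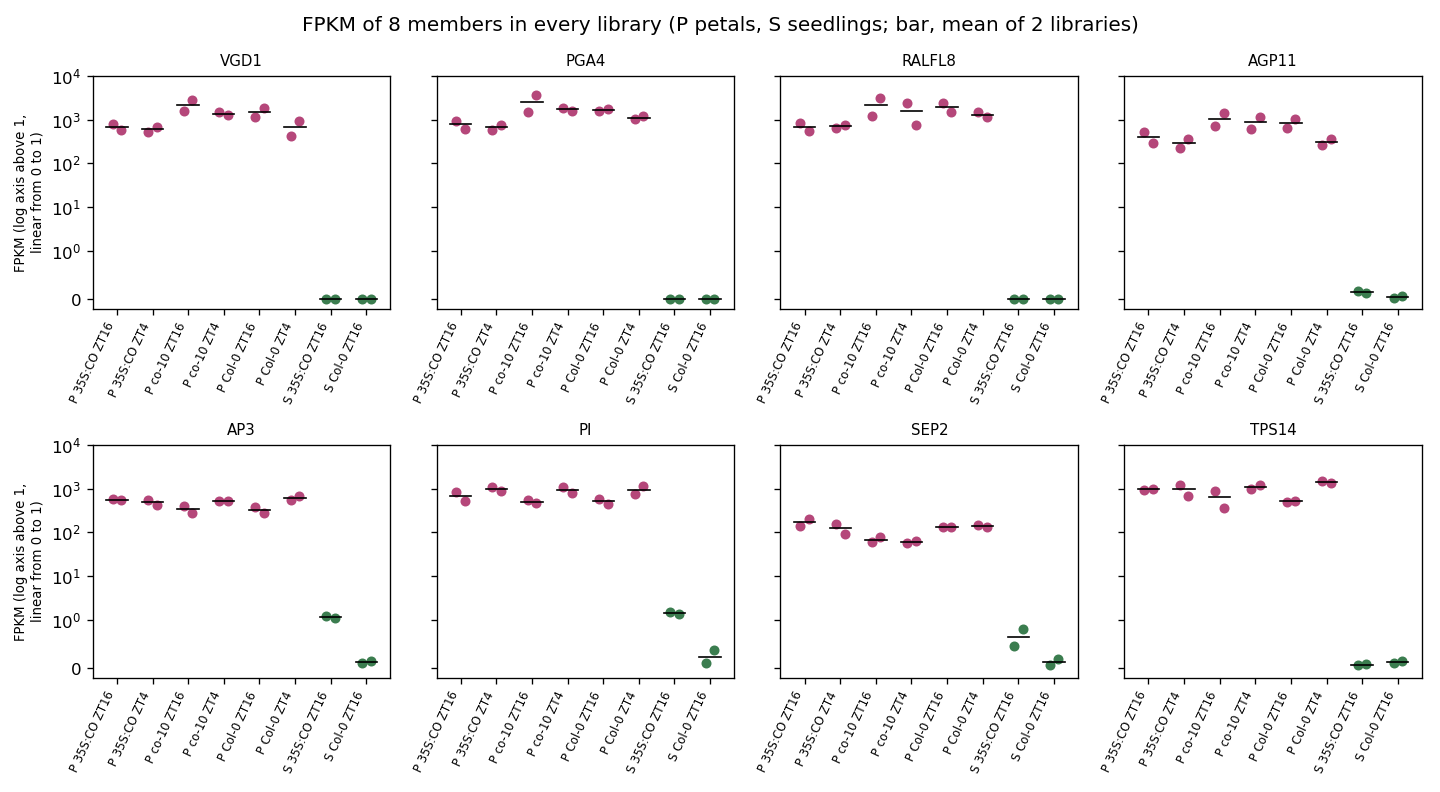
FPKM of 8 members (logarithmic axis above 1, linear from 0 to 1) in the 6 petal groups (P, pink) and 2 seedling groups (S, green); points are single libraries and bars the mean of 2. VGD1, PGA4, RALFL8 and AGP11 reach 1409.6 to 3666 FPKM in co-10 ZT16 replicate 2, whereas AP3 and PI stand at 279 and 474 FPKM there.

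Most members were not steady. The highest petal library exceeded the lowest by a median of 5.21-fold, against 2.81-fold in the comparison set, and the SD of log2(FPKM + 1) over the 12 libraries had a median of 0.72, against 0.43. Under 4-fold stayed 73 members (23.3%), against 74.7% of the comparison set, and under 2-fold stayed 5 members. A spread of 10-fold or more was seen in 37. The steadiest by SD were ICME-LIKE2 (5.36 to 9.42 FPKM) and AT1G11090 (7.75 to 13.2 FPKM), both alpha/beta hydrolase genes, AT4G38250, an amino acid transporter family gene (56.4 to 86.1 FPKM), AT4G02720 (15.4 to 28.2 FPKM), and AP1. The least steady by SD were CYP71B31 (393-fold between highest and lowest), LHB1B2 (41.7-fold), AT5G40348 (58.2-fold), MYB57 (44.8-fold) and AT1G02070 (57.2-fold), all 5 lower at ZT16 than at ZT4. By the fold between highest and lowest, AT5G07745 (55.4-fold) and AAE11 (48.2-fold) came before MYB57. Near the limits of the choice, AT2G19050 and AT1G12070 were kept with lowest petal values of 5.07 and 5.11 FPKM, while AT2G40990 and AT1G05450 fell outside at 4.94 and 4.88 FPKM. On the seedling side CIPK18 and AT2G31945 were kept at 0.475 and 0.472 FPKM, while AT1G16705 and CYP71A24 fell outside at 0.533 and 0.544 FPKM.

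**Figure D3:**
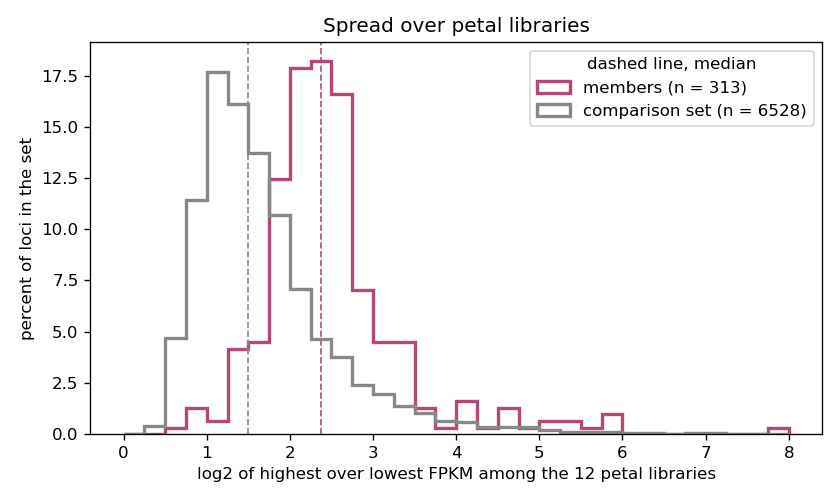
Distribution of the log2 ratio of highest to lowest FPKM among the 12 petal libraries, as percent of loci in each set, for the 313 members (pink) and the 6528 loci of the comparison set (grey); dashed lines are medians. The members' median ratio is 5.21-fold and that of the comparison set 2.81-fold.

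Time of day was the comparison in which members were called. It also set more libraries against each other than any genotype comparison did. At ZT16 relative to ZT4, averaged over the 3 genotypes, 148 of 313 members (47.3%) passed the test (limma on log2(FPKM + 1), Benjamini-Hochberg adjusted p under 0.05 over 17876 loci), where 33.5% of all tested loci and 37.8% of the comparison set did. Higher at ZT16 were 123 members and lower 25, against backgrounds of 19.9% and 13.7% of tested loci. The members' median difference was 0.61 on the log2 scale, and that of all tested loci 0.12. The count rested partly on single libraries: it was 86 without 35S:CO ZT16 replicate 1 and 110 without co-10 ZT16 replicate 2, and 84 of the 148 also passed in all 17 alternative settings. The pollen marker sum was 3415 and 2028 FPKM in 35S:CO, 4714 and 8696 FPKM in co-10 and 4545 and 5937 FPKM in Col-0 at ZT16, against 1815 and 2395 FPKM in 35S:CO, 4699 and 4573 FPKM in co-10 and 2335 and 2804 FPKM in Col-0 at ZT4. Both ZT16 sums lay above both ZT4 sums in Col-0 and in co-10, while the times overlapped in 35S:CO. The marker sum includes 5 members, and its part in the members' difference was not tested.

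Every pollen tube gene that passed was higher at ZT16. Of the 33, 16 were higher at ZT16 and 0 lower, with a median difference of 0.68, and 27 of the 33 (81.8%) had their highest value in co-10 ZT16 replicate 2. The rest of the set leaned the same way. Of the 268 members in none of the 3 lists chosen by name, 106 were higher and 18 lower (median 0.61). In 57.5% of those 268 the highest value was in that library. PPME1, a pectin methylesterase, ranged from 80.3 to 258 FPKM at ZT16 (median 149) and from 44.7 to 146 FPKM at ZT4 (median 56.9), a difference of 1.18 ± 0.27 (SE, log2; limma adjusted p = 0.00626). CHX23, a cation exchanger, ranged from 78.3 to 391 FPKM at ZT16 (median 196) and from 36.0 to 180.3 FPKM at ZT4 (median 72.4), a difference of 1.22 ± 0.26. For both genes the times overlapped. The receptor-like kinase gene ANX2 was higher by 0.79 ± 0.21 (limma adjusted p = 0.0131), the actin gene ACT12 by 0.75 ± 0.21 (0.0180), the actin-depolymerising factor gene ADF7 by 0.65 ± 0.20 (0.0323) and the MYB factor gene MYB101 by 0.80 ± 0.24 (0.0239). The call of ADF7 held in 10 of the 17 alternative settings, that of MYB101 in 12 and that of ACT12 in 14. RPP13, which overlaps ACT12 on the other strand, had medians of 11.2 FPKM at ZT16 and 5.87 FPKM at ZT4. The level of ACT12 therefore counts as uncertain. The most abundant did not pass: VGD1 differed by 0.65 ± 0.26 (limma adjusted p = 0.0790), with 566 to 2833 FPKM at ZT16 and 429 to 1462 FPKM at ZT4, and none of the 8 RALF-like genes was called. By family, 7 of 11 pectin lyase-like genes, 8 of 21 methylesterases and inhibitors, 7 of the 12 protein kinase family genes, 7 of 9 glycosyl hydrolases, 5 of 6 genes of the DUF1216 family, 4 of 6 actin-related genes and 3 of 4 SKU5-similar genes were higher and 0 lower. Of the 12 pollen markers, 9 were tested and 4 were higher (TUA1, ACA9, SPIK and PPME1).

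The members with the largest ZT16 excess were of other kinds. MYB24, a jasmonate-regulated factor of stamen and petal maturation, ranged from 75.6 to 141 FPKM at ZT16 (median 104) and from 9.44 to 15.7 FPKM at ZT4 (median 10.6), a difference of 3.11 ± 0.19 (limma adjusted p = 2.32e-06). SAG12, a cysteine protease gene used as a senescence marker, ranged from 1059 to 4026 FPKM at ZT16 (median 1813) and from 161 to 401 FPKM at ZT4 (median 250.0), a difference of 2.99 ± 0.36 (limma adjusted p = 1.24e-04). In neither did the times overlap. The noncoding RNA gene AT5G40348 overlaps MYB24 on the other strand and ran in the mirror image, with medians of 43.7 FPKM at ZT16 and 327 FPKM at ZT4. If the counting did not use strand, the reads of this pair cannot be told apart, so the direction of MYB24 counts as uncertain. AT5G28237, a pyridoxal-phosphate enzyme family gene, differed by 3.07 ± 0.32, AT1G80165 by 2.78 ± 0.27, MYB2, a MYB factor of abscisic acid responses, by 2.44 ± 0.31, BAC2, a mitochondrial amino acid carrier, by 2.40 ± 0.25, and AT1G70680, a caleosin-related gene, by 2.05 ± 0.18. NAC3, a stress-related NAC factor, stood at 135 to 483 FPKM at ZT16 (median 282) and 64.3 to 123 FPKM at ZT4 (median 90.3), a difference of 1.59 ± 0.27 (limma adjusted p = 0.00115). CDA1, cytidine deaminase, stood at 243 to 465 FPKM at ZT16 (median 365) and 113 to 219.6 FPKM at ZT4 (median 140.4), a difference of 1.21 ± 0.24. The 5 genes before NAC3 also had no overlap between the times, nor had NAC3 and CDA1.

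Members lower at ZT16 included genes of specialised metabolism and some floral regulators. Of the 4 MADS-box members 1 (PI) was lower and 3 were not called. All 5 cytochromes P450 and both terpene synthases fell, TPS14 with a call that depended on the setting. CYP71B31, a P450 of linalool oxidation, ranged from 8.54 to 496 FPKM at ZT16 (median 91.0) and from 1710.2 to 3354 FPKM at ZT4 (median 2643), a difference of -5.17 ± 0.57 (limma adjusted p = 6.85e-05). CYP76C3, which also acts on linalool, ranged from 66.6 to 397 FPKM at ZT16 (median 248) and from 465 to 1136 FPKM at ZT4 (median 627), a difference of -1.80 ± 0.41 (limma adjusted p = 0.00652). TPS10 ranged from 33.8 to 346 FPKM at ZT16 (median 144) and from 222 to 1145 FPKM at ZT4 (median 586), and TPS14 from 366 to 974 FPKM at ZT16 (median 705) and from 679 to 1465 FPKM at ZT4 (median 1225). These 2 linalool synthase genes differed by -2.06 ± 0.48 and -0.77 ± 0.25, with overlapping times (limma adjusted p = 0.00758 and 0.0353). The call of TPS14 was lost in 11 of the 17 alternative settings, and that of TPS10 in 0. CYP71B8 differed by -2.52 ± 0.36, CYP96A9 by -1.53 ± 0.32, CYP71B38 by -1.29 ± 0.25, AAE11 by -2.88 ± 0.46 and the glucosyltransferase gene UGT73C6 by -2.17 ± 0.25. In the wider floral volatile list, where 9 of 11 genes were tested, 4 were lower (TPS14, CYP76C1, CYP76C3 and CYP71B31) and 3 higher (TPS03, BSMT1 and CYP76C2), so the list did not move as one. Of all tested loci 13.7% were lower and 19.9% higher.

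MYB57 and MYB21, relatives of MYB24 in the same jasmonate module, had lower FPKM values at ZT16. MYB57 ranged from 22.2 to 217 FPKM at ZT16 (median 55.8) and from 430.3 to 994 FPKM at ZT4 (median 652), a difference of -3.28 ± 0.26 (limma adjusted p = 8.88e-06). MYB21 ranged from 23.5 to 163 FPKM at ZT16 (median 96.3) and from 103 to 256 FPKM at ZT4 (median 166), a difference of -1.06 ± 0.36 (limma adjusted p = 0.0417), a call lost in 11 of the 17 alternative settings. PI ranged from 456 to 852 FPKM at ZT16 (median 535) and from 741 to 1148 FPKM at ZT4 (median 973), a difference of -0.74 ± 0.21 (limma adjusted p = 0.0179), a call that held in 14 of the 17 settings. AP3 differed by -0.44 ± 0.18 (0.0862), SEP2 by 0.22 ± 0.18 (0.388) and AP1 by 0.33 ± 0.16 (0.142), none past the threshold. AT5G40348, a noncoding RNA on the strand opposite MYB24, was lower by 3.12 on the log2 scale (-3.12 ± 0.41), with 7.25 to 119 FPKM at ZT16 and 231 to 422 FPKM at ZT4. LHB1B2 was lower as well (-3.87 ± 0.29), with 51.5 to 209 FPKM at ZT16 and 1190.2 to 2149 FPKM at ZT4. Of the identity list of 12, 11 were tested: 1 was higher (MYB24) and 5 lower (PI, SEP3, MYB21, MYB57 and JAG). In the jasmonate and flower maturation list 4 of 21 tested were higher and 3 lower, near the 19.9% and 13.7% of all tested loci. Lists with no member were counted too: 11 of 15 tested cuticle genes, 4 of 12 flavonoid genes, 5 of 14 petal growth genes and 6 of 7 green tissue genes were lower, and 0, 3, 1 and 0 of them higher. The same shares of all tested loci apply to every list, and no list was tested as a set.

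**Figure D4:**
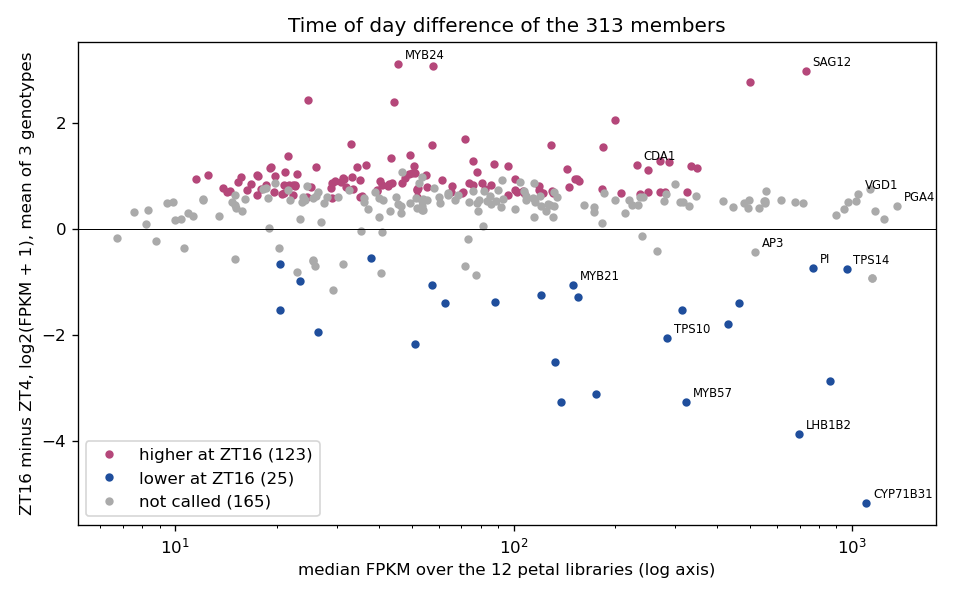
Difference between ZT16 and ZT4 petals in log2(FPKM + 1), averaged over 3 genotypes (limma), against the median FPKM over the 12 petal libraries (logarithmic axis), 1 point per member; pink is higher at ZT16 (123), blue lower (25), grey not called (165). MYB24 and SAG12 stand at the top and CYP71B31 at the bottom, while VGD1 and PGA4 are uncalled at the right.

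**Figure D5:**
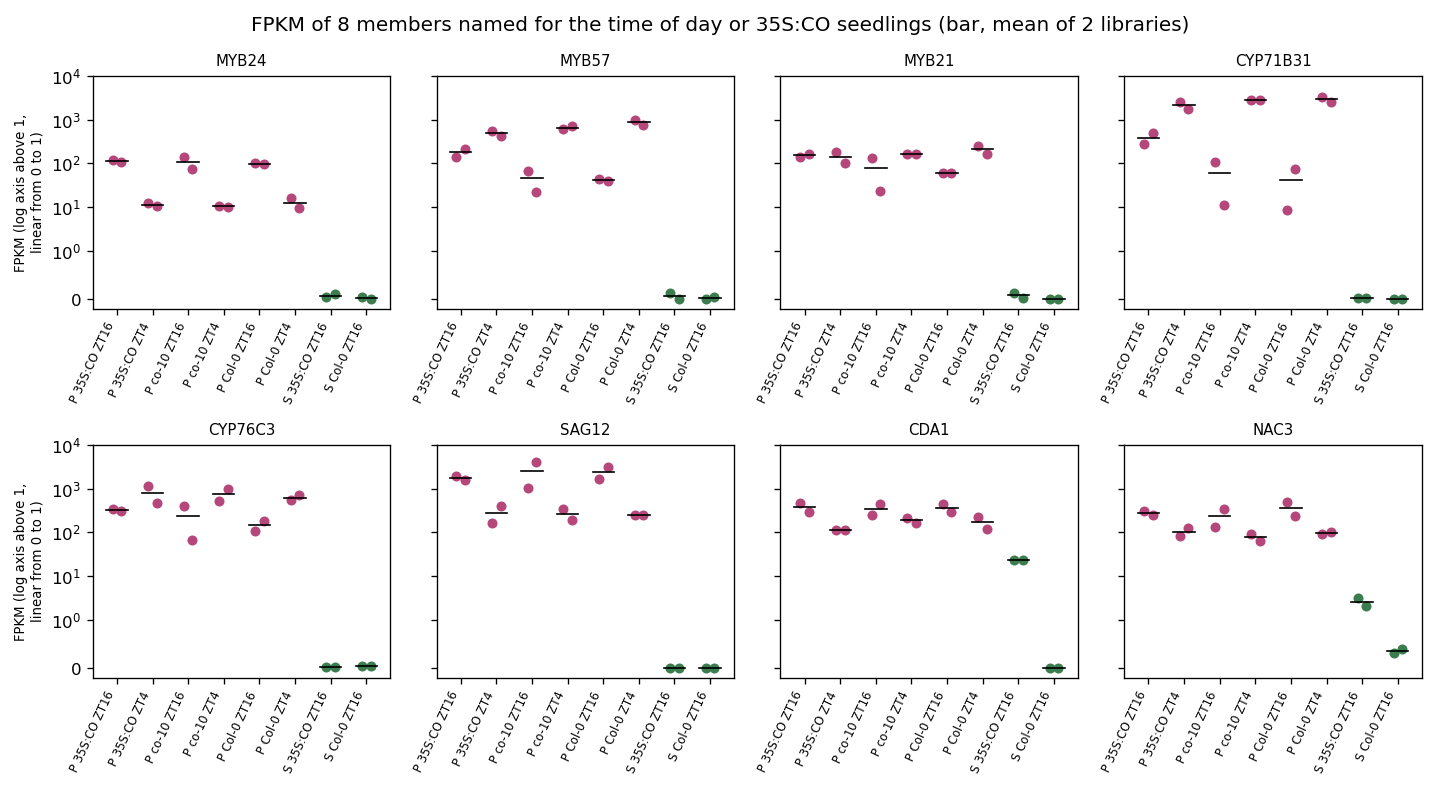
FPKM of 8 members (logarithmic axis above 1, linear from 0 to 1) in the 6 petal groups (P) and 2 seedling groups (S); points are single libraries and bars the mean of 2. MYB24 and SAG12 are higher at ZT16 in each genotype, MYB57 and CYP71B31 lower, and CDA1 is at 22.8 and 23.7 FPKM in 35S:CO seedlings and at 0 in Col-0 seedlings. MYB24 and CDA1 overlap noncoding loci on the other strand, so the direction of MYB24 and the seedling level of CDA1 count as uncertain.

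No member differed between genotypes at the threshold. For 35S:CO against Col-0 petals at ZT16, 0 of 313 members passed limma's adjusted p of 0.05, where 1.14% of all tested loci did, although 150 members had an unadjusted p under 0.05. The members' median difference was -0.76, and 229 of 313 were below 0, while the median of all tested loci was 0.00. Without 35S:CO ZT16 replicate 2 the members' median was -0.47. The lists chosen by name had different signs at ZT16, a difference between lists that was not tested. Of the 33 pollen tube genes 29 were below 0 (median -1.06): VGD1 differed by -1.12 ± 0.45 (adjusted p = 0.412), PGA4 by -1.15 ± 0.42 and RALFL8 by -1.47 ± 0.58. Of the 8 identity and maturation regulators 1 was below 0 (median 0.59), and of the 4 terpenoid genes 0 (median 1.06). The sum of the pollen markers ran the same way at ZT16, with both 35S:CO libraries (3415 and 2028 FPKM) below both Col-0 libraries (4545 and 5937 FPKM). That sum includes 5 members, and the part of pollen in the members' median was not tested.

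The smallest adjusted p at ZT16 belonged to CYP71B8 and MYB57. CYP71B8 stood at 106 and 128 FPKM in 35S:CO petals and at 10.5 and 21.3 FPKM in Col-0 petals at ZT16, a difference of 2.87 ± 0.63 (limma adjusted p = 0.0609). MYB57 stood at 143 and 217 FPKM in 35S:CO and 43.2 and 39.4 FPKM in Col-0, a difference of 2.07 ± 0.45 (limma adjusted p = 0.0617). CYP71B31 stood at 279 and 496 FPKM in 35S:CO and 8.54 and 72.3 FPKM in Col-0, a difference of 3.82 ± 0.98 (limma adjusted p = 0.129). In each the 35S:CO values lay above both Col-0 values at ZT16 and below the Col-0 values at ZT4 (209.7 and 207 FPKM for CYP71B8, 994 and 757 for MYB57, 3354 and 2537 for CYP71B31). TPS14 stood at 954 and 974 FPKM in 35S:CO and 501 and 518 FPKM in Col-0 at ZT16, and MYB21 at 139.8 and 163 FPKM in 35S:CO and 59.5 and 58.7 FPKM in Col-0, differences of 0.92 ± 0.43 and 1.34 ± 0.62 that did not pass. When either co-10 ZT16 library was left out of the fit, which changes only the pooled spread, 7 members passed: MYB57, CYP71B8, CYP71B31, CYP96A9, AT1G02070 and AT5G40348, all higher in 35S:CO, and AT1G35490, lower.

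At ZT4, 0 members passed for 35S:CO against Col-0 petals (0.106% of tested loci did), 25 had an unadjusted p under 0.05, and the median was -0.31, with 221 below 0. All tested loci had a median of -0.07 there, and after rescaling without ribosomal RNA the medians were -0.13 for members and 0.09 for all tested loci. Quantile normalization gave a members' median of -0.15, and leaving out Col-0 ZT4 replicate 2 gave -0.13. At this time the medians of all 3 lists chosen by name were below 0, with negative differences in 24 of 33 pollen tube genes (median -0.18), 6 of 8 regulators (median -0.17) and 3 of 4 terpenoid genes (median -0.54). For co-10 against Col-0, averaged over the times, 0 members passed (0.0392% of tested loci did), 56 had an unadjusted p under 0.05, the median was 0.28 (0.43 without co-10 ZT16 replicate 1) and 230 were above 0. The smallest adjusted p was that of SEP2, at -1.09 ± 0.23 (limma adjusted p = 0.323). For VGD1 the co-10 difference was 0.82 ± 0.32. The test of whether the 35S:CO difference itself changed with time called 0 members (0.0224% of tested loci), with 26 at an unadjusted p under 0.05, a median of -0.36 and 228 below 0, and its median was -0.06 without 35S:CO ZT16 replicate 2, -0.69 without replicate 1 and -0.56 after rescaling without ribosomal RNA.

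Seedlings that overexpress CO had few of these transcripts. In 35S:CO seedlings, 8 of 313 members (2.56%) stood at 1 FPKM or more in both libraries, where 0.758% of the 11745 nuclear loci below 0.5 FPKM in both Col-0 seedling libraries did. Below 0.5 FPKM in both stayed 282, and 145 were listed at 0 in all 4 seedling libraries, 17 of the 33 pollen tube genes among them. A listed 0 can be a failed estimate, so no fold is given against it, and because the Col-0 level chose the members no test is given. CDA1 was the highest, at 23.7 and 22.8 FPKM in 35S:CO seedlings and 0 and 0 in Col-0. A noncoding locus on its other strand, AT2G19572, stood at 21.1 and 20.3 FPKM in 35S:CO and 13.6 and 14.2 FPKM in Col-0 seedlings. It shares 1401 bases with CDA1, so the seedling level of CDA1 counts as uncertain. SIP4, a CBL-interacting protein kinase, stood at 5.16 and 4.54 FPKM in 35S:CO and 0 and 0 in Col-0, and AT2G46670, a CCT-motif gene, at 4.63 and 5.02 FPKM in 35S:CO and 0.453 and 0.339 FPKM in Col-0. AT2G46670 shares 73.5% of its 75-base words with AT2G46790, so its level counts as uncertain. NAC3 stood at 3.06 and 2.02 FPKM in 35S:CO and 0.306 and 0.387 FPKM in Col-0. The floral genes among the 8 were the B-class pair: AP3 at 1.24 and 1.09 FPKM in 35S:CO and 0.111 and 0.142 FPKM in Col-0, and PI at 1.48 and 1.38 FPKM in 35S:CO and 0.104 and 0.375 FPKM in Col-0. Both remained far below their petal levels. ATCHX8 (1.74 and 1.28 FPKM) and the sphingolipid desaturase gene SLD2 (1.12 and 1.38 FPKM) complete the 8. At a limit of 0.5 FPKM the count was 14, and at 2 FPKM it was 4. Rescaling set nuclear FPKM outside ribosomal RNA to a sum of 1000000 per library, and 13 members then stood at 1 or more in both. The 35S:CO seedling libraries summed to 584267 and 583643 FPKM before, with 0.238 and 0.159% ribosomal RNA, so that limit lay below 1 FPKM.

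AP1 and MYB108 reached 1 FPKM in 1 of the 2 libraries, at 0.706 and 1.01 FPKM and at 1.03 and 0.849 FPKM, against 0.0291 and 0 and 0.154 and 0.456 FPKM in Col-0 seedlings. In all, 7 members did so in 1 library, and the libraries disagreed widely for some: AT3G02910 was listed at 50.4 and 0 FPKM and AT4G02720 at 0 and 20.4 FPKM. AT3G02910 has a noncoding locus on its other strand, AT3G01205, at 47.6 and 43.2 FPKM in the same libraries and 37.3 and 35.8 FPKM in Col-0 seedlings. CO itself stood at 315 and 297 FPKM in 35S:CO seedlings, and its target FT at 157 and 165 FPKM in 35S:CO and 2.18 and 3.28 FPKM in Col-0.

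Some seedling zeros lie at loci with an overlapping gene. A gene on the other strand overlapped 91 members (29.1%) and 1860 loci of the comparison set (28.5%), and 56 members (17.9%, against 16.3%) had such a partner at 5 FPKM or more in both Col-0 seedling libraries. Of these 56, 28 had a single exon, against 63 of 1062 (5.93%) in the comparison set. The libraries were stranded, but whether the counting used strand is not stated in what was used here, and without it the reads of a gene and its antisense partner cannot be told apart. LHB1B2, a light-harvesting gene of green tissue, was listed at 0 in Col-0 seedlings, where AT2G08665 on its other strand averaged 291 FPKM, while in petals their medians were 699.7 and 0.135 FPKM. SVB was listed at 0 in Col-0 seedlings beside PGN at 42.5 FPKM, and MYC2, the jasmonate bHLH factor, at 0 beside AT1G32630 at 16.0 FPKM, with petal medians of 57.2 FPKM for SVB beside 0 for PGN, and 37.9 FPKM for MYC2 beside 1.94 FPKM for AT1G32630. In 21 members (6.71%, against 5.07% of the comparison set) the partner's petal median was under 0.25 times its seedling mean. Among members named for a difference with time, TPS14, BAC2, AT1G80165, CDA1, LHB1B2, UGT73C6, MYB57, MYB21 and ACT12 also overlap a gene on the other strand, besides MYB24 and AT5G40348. The partner of AT1G80165, GLYI7, was itself at 209 to 448 FPKM at ZT16 and 66.5 to 136 FPKM at ZT4, so the level of AT1G80165 counts as uncertain too. The same holds for ACT12, which shares 1167 bases with RPP13. The partner of MYB57, AT3G01520, shares 43 bases with it and had medians of 66.7 FPKM at ZT16 and 97.5 FPKM at ZT4. Whether reads of such pairs were assigned by strand was not tested.

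The members also shared features of their genes. Of the protein-coding members, 104 (34.2%) had a single exon, against 10.9% of the comparison set, and the median exon number was 2, against 5. Among protein-coding genes without an other-strand partner read in seedlings the shares were 30.4% of 250 members and 10.2% of 5426 loci of the comparison set. Chromosome 3 held 89 of the 313 (28.4%), against 20.01% of the comparison set. In 21 runs, 47 members followed one another along a chromosome with at most 1 other protein-coding gene between them, among them RALFL8 and RALFL9, VGDH1 and VGD1, sks14 and sks12, sks11 and sks13, RALFL25 and RALFL26, and the 4 genes from AT3G28780 to AT3G28830 of the DUF1216 family. Several of these neighbours are copies of one another and so are not independent. Besides 304 protein-coding genes, the members counted 5 long noncoding RNAs and 4 small nuclear RNAs.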

How the data were processed

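Petals and whole seedlings were profiled by stranded mRNA sequencing (TruSeq Stranded mRNA, per the labels' protocols). The authors deposited 1 table of FPKM values for 32833 loci in 16 libraries. HISAT2, FastQC and TAIR10 are named in the submitters' processing notes; which program made the FPKM values, and with what strand setting, is not given in the sources used here. Whole reads could not be recovered from the low FPKM values, so depth is unknown and no counting interval is given. No column of other samples was present.

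The members and gene lists were chosen with earlier results of these data known. Petal comparisons were fitted in limma 3.58.1 (R 4.3.3, statmod 1.5.0) on log2(FPKM + 1), for 17876 loci at 1 FPKM or more in at least 2 of 12 petal libraries, with 6 group means, a trended and robust prior variance and Benjamini-Hochberg adjustment over all tested loci for each of 5 comparisons. Every member passed the filter in every group. Fold changes on this scale understate low genes. The script was tested on simulated data. Named members were the 20 with the highest petal median, up to 6 called each way per comparison, the 5 with the lowest and the 5 with the highest SD, those nearest the limits, up to 10 of the highest in 35S:CO seedlings, the members of marker or role lists, and up to 4 per family; CYP71B8, PRK4, MYC2, SVB, ANX2, UGT73C6, AT1G35490, AT3G02910, VGDH2 and a few others were named after their values were seen. Alternatives were another pseudocount, no filter, quantile normalization, rescaling without ribosomal RNA, a replicate block, leaving out each library, and other limits for membership. Gene names, overlaps and upstream sequences came from RefSeq annotation of TAIR10.1, and 75-base words shared between transcripts from its transcripts. Python 3.11.15 with pandas 2.3.3 and matplotlib 3.10.9 was used for the rest.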

Additional observations from a re-analysis of the deposited data

How the results depend on the processing

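The calls by time of day held in number within 1.5 times (148 members) under a pseudocount of 0.1 FPKM (134), no filter (122), quantile normalization (138) and rescaling without ribosomal RNA (142); leaving out 1 library gave 86 to 213, the lowest without 35S:CO ZT16 replicate 1. For 35S:CO against Col-0 at ZT16, 0 members became 3 under quantile normalization (AT3G01240, MYB57 and CYP71B8) and 0 to 7 when 1 library was left out. For the change of that difference with time, leaving out 1 library gave 0 to 1 (MYB57, without either co-10 ZT16 library). For 35S:CO at ZT4 and for co-10 every setting gave 0. Groups shared replicate numbers, and over 15 pairs of petal libraries the correlation of deviations ran from -0.302 to 0.228 (median 0.042, 5 above 0.1). These correlations cannot show whether the numbers pair the samples, because they average over all loci. With the replicate block 173 members were called by time and 1 (PRK4, -1.58, limma adjusted p = 0.0333) at ZT16. The number of members was 365 and 242 with petal limits of 3 and 10 FPKM, 279 and 361 with seedling limits of 0.25 and 1 FPKM, 330 after rescaling, and 313 to 332 without 1 library. Members above the limit in both 35S:CO seedling libraries numbered 14 at 0.5 FPKM, 4 at 2 FPKM, 13 after rescaling, and 11 to 12 without 1 library. Rescaling also set each library's nuclear FPKM outside ribosomal RNA to a sum of 1000000, so its limits are not the same limits in FPKM. Of 952 values recomputed for single genes, 807 kept their direction and side of the threshold, 145 kept their direction and missed the threshold, and 0 reversed. The causes were not tested. With unknown depth, values near 0.5 FPKM in seedlings cannot be given a counting error.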
